A study of Mus musculus with 9 samples.

Results

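The proton pump of the lysosome, its proteases and its most abundant membrane glycoproteins were followed through 45 mouse genes of the 49315 in the count table. They were taken by name as protein-coding genes of GRCm38: 14 named Atp6v1 and 9 named Atp6v0 after the V1 and V0 sectors of the pump, the accessory subunit genes Atp6ap1 and Atp6ap2, 18 cathepsin genes with a single letter after Cts, and Lamp1 and Lamp2. One of the 14, Atp6v1fnb, carries the prefix only because it lies beside Atp6v1f and encodes no subunit. The study asked how glioblastoma cells that take up astrocyte mitochondria differ from those that do not. Primary neonatal astrocytes of the strain C57BL6 (mito::mKate2), in which the red fluorescent protein mKate2 labels mitochondria, were grown for 2 days in co-culture with SB28, a GFP+ mouse glioblastoma line from C57BL6. The cultures received no drug or other treatment, and all 3 groups came from them by sorting: astrocytes, SB28 cells without mKate2 signal (mKate2-negative) and SB28 cells with it (mKate2-positive). Each group had 3 RNA-seq libraries from separate co-cultures, with 24454561 to 39287841 counted reads per library. SB28 is 1 established line, so its libraries do not sample different tumors, and no group holds astrocytes or tumor cells grown alone.

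The V-ATPase pumps protons into lysosomes and other acid organelles. Its cytosolic V1 sector hydrolyses ATP and turns a ring of the membrane-bound V0 sector, which carries the protons, and several subunits exist as alternative forms encoded by separate genes with tissue-specific use. The acid lumen activates the cathepsins, most of them cysteine proteases, with cathepsin D as the main aspartic protease and cathepsin A as a serine carboxypeptidase. Lamp1 and Lamp2 coat the inner face of the limiting membrane. In astrocytes lysosomes degrade material taken up from the surroundings, and in gliomas secreted cathepsins have been studied for their cleavage of matrix.

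Levels are given as CPM, the reads of a gene scaled to the same total in each library. Levels of different genes among the 45 are compared after division by exonic length in kb, and in plain CPM where stated. Exonic length covers all annotated exons of a gene and can exceed that of the transcripts present. Levels and shares per kb are therefore not numbers of transcripts. Sums, and what single genes gave to the sums of marker lists, are in plain CPM. The 45 genes together reached 6885, 6361 and 6654 CPM in the astrocyte libraries, 4122, 4467 and 4027 in mKate2-negative and 4412, 4560 and 4004 in mKate2-positive SB28. No tumor library reached the level of an astrocyte library, and both tumor populations covered nearly the same range. The cathepsins carried most of the gap, at 3413 ± 258 CPM in astrocytes, 1974 ± 174 in mKate2-negative and 2032 ± 173 in mKate2-positive cells (SD, n = 3). The 25 genes named for the pump summed to 2178 ± 103, 1658 ± 53.8 and 1715 ± 94.4 CPM in the same order, with V1 nearly level at 955.7 ± 72.4, 862.9 ± 48.2 and 887.7 ± 59.0. In bulk libraries such as these, fewer cells of a type and less RNA per cell cannot be told apart.

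**Figure D1:**
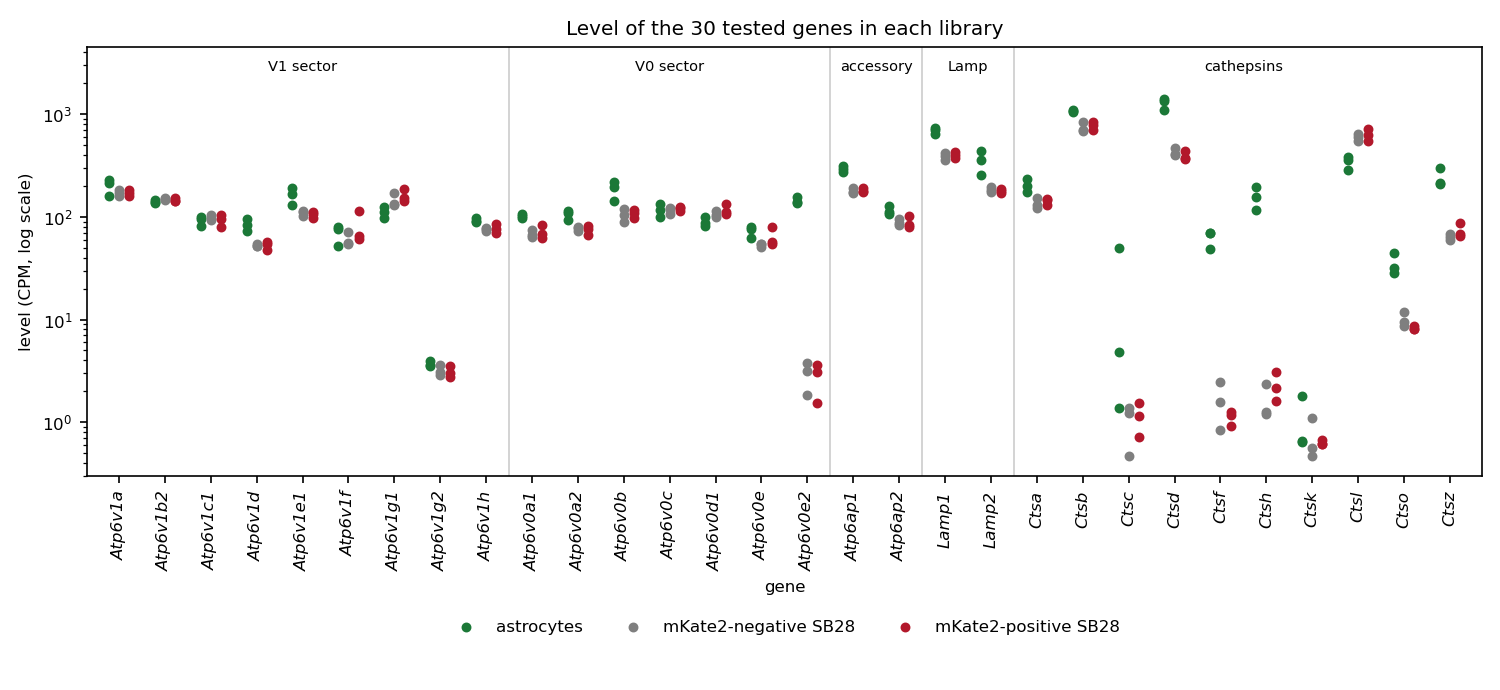
CPM of the tested genes in each of the 9 libraries, on a log axis, with 1 point per library and groups by color. Ctsh, Ctsf and Atp6v0e2 lie between 0.846 and 3.787 CPM in tumor cells and at 48.4 CPM or more in astrocytes, whereas Atp6v1b2 and Atp6v1c1 lie at similar levels in all 3 groups.

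In mKate2-negative SB28, 20 of 30 tested genes were lower than in astrocytes and 2 were higher at an adjusted P value below 0.05 by edgeR's quasi-likelihood test. Of all 13356 genes tested in this comparison, 33.8% were lower and 29.3% higher, so most genes differed between the cell types. The median log2 fold change was −0.54 for the tested pump, cathepsin and Lamp genes and −0.038 for all genes. In mKate2-positive SB28, 17 of 29 tested genes were lower and 3 higher, against 32.1% lower and 28.0% higher among all 13342 genes, with medians of −0.43 and −0.018. Both comparisons used the same 3 astrocyte libraries, so their calls are not independent of each other. In both, 17 genes were lower and 2 higher, and the share of all genes called in both is not given here. By more than 2-fold, 7 genes were lower in each comparison and none was higher, against backgrounds of 22.4% lower and 11.5% higher in mKate2-negative and 22.8% and 12.2% in mKate2-positive cells. The count lower in mKate2-positive cells was 10 without mKate2-positive replicate 3, when the share of all genes lower fell to 27.0%.

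**Figure D2:**
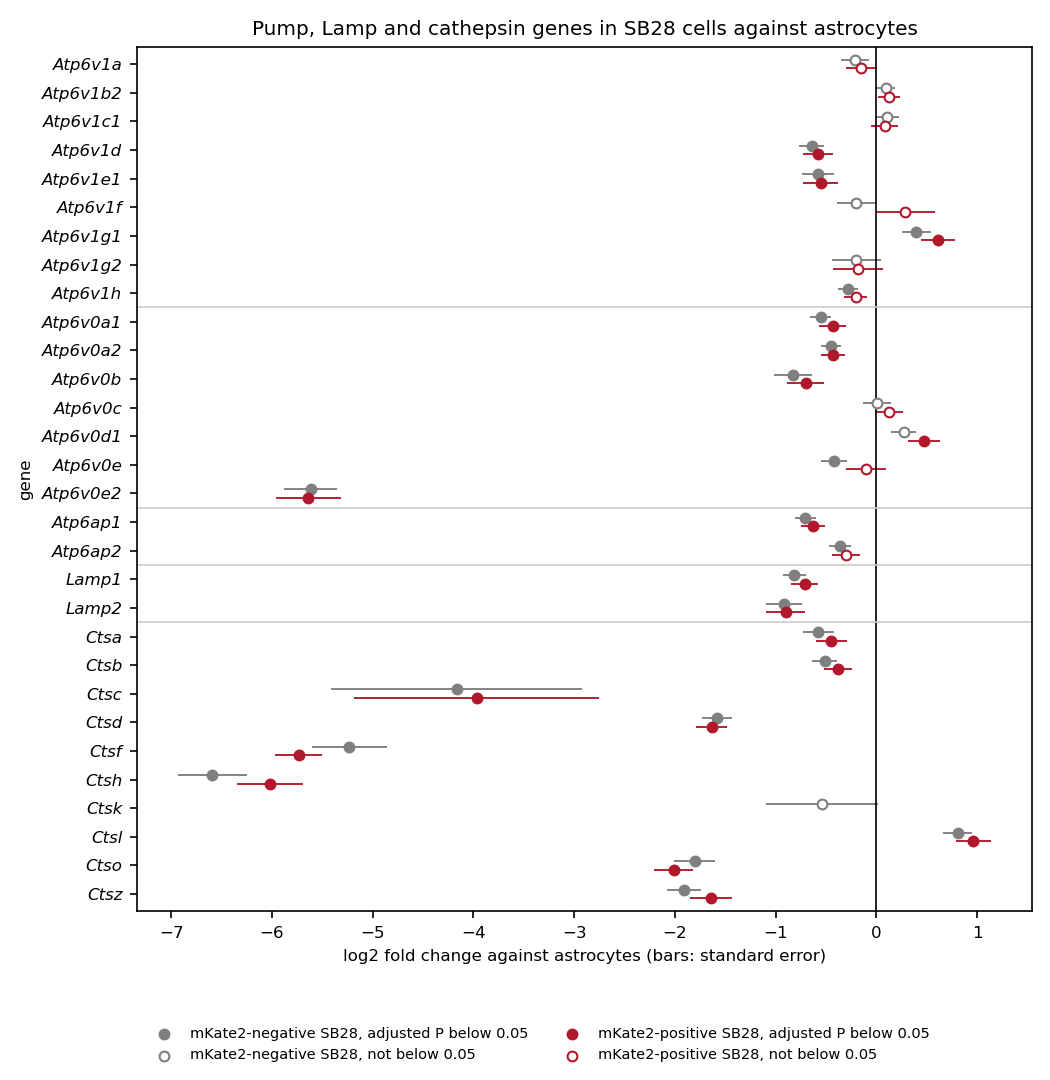
Log2 fold change of each tested gene in mKate2-negative and mKate2-positive SB28 against astrocytes, with bars of 1 standard error from edgeR. Filled points passed an adjusted P value of 0.05. Ctsh, Ctsf and the pump subunit gene Atp6v0e2 lie furthest to the left in both comparisons, and Ctsl is the cathepsin above 0.

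All 6 tumor libraries lay below all 3 astrocyte libraries for 18 of the 30 tested genes and above them for 3, where 34.9% and 27.6% of 13410 genes did so. The 3 genes above were Ctsl, Atp6v1g1 and Atp6v0d1. For the other 9, tumor and astrocyte levels overlapped, among them Atp6v0c, Atp6v1a, Atp6v1b2 and Atp6v1c1.

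The pump genes did not share a direction. In V1, the sector that hydrolyses ATP, 3 of 9 tested genes were lower and 1 was higher in mKate2-negative cells, and 2 were lower and 1 higher in mKate2-positive cells. Among all genes 33.8% were lower and 29.3% higher in the first comparison and 32.1% and 28.0% in the second, so the share lower was no larger in V1. The catalytic core did not pass the test in either comparison. Atp6v1a, the catalytic subunit, had 160, 229 and 211.7 CPM in astrocytes, 169.7, 181.3 and 160.8 in mKate2-negative and 169.1, 183.2 and 160.8 in mKate2-positive cells. Atp6v1b2, its partner in the ATP-hydrolysing ring, ranged only from 135.7 to 152.9 CPM over all 9 libraries. Its log2 fold changes were 0.094 and 0.13, with adjusted P values of 0.412 and 0.324 from edgeR. Atp6v1c1, which links the ring to the stator, had log2 fold changes of 0.11 and 0.083, and Atp6v1a of −0.21 and −0.15. All of these groups overlapped.

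Among the other V1 genes, Atp6v1d, a part of the central rotor, fell by 0.64 ± 0.13 on the log2 scale in mKate2-negative and by 0.58 ± 0.15 in mKate2-positive cells (SE, n = 3 per group), the latter call with an adjusted P value of 0.0510 from edgeR without mKate2-positive replicate 3. It had 94.17, 82.46 and 73.37 CPM in astrocytes and 47.37 to 57.47 in the tumor libraries, which did not overlap. Atp6v1e1, a stator subunit, fell by 0.57 ± 0.16 and 0.55 ± 0.17, with adjusted P values of 0.0146 and 0.0248 from edgeR. Leaving out any of 4 libraries took its call in mKate2-positive cells, with adjusted P values from edgeR of 0.0545 without astrocyte replicate 1, 0.0622 without astrocyte replicate 2, 0.0741 without mKate2-positive replicate 1 and 0.0935 without replicate 3. In mKate2-negative cells the value was 0.0611 without replicate 3. Atp6v1h, which regulates the coupling of V1 to V0, passed the test only in mKate2-negative cells (log2 fold change −0.28 ± 0.098), and lost it there without any 1 of the mKate2-negative libraries, with adjusted P values from edgeR of 0.0891, 0.0920 and 0.135. The difference between the comparisons was not tested separately.

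Atp6v1g1, another stator subunit, was the V1 gene that rose. It had 110.9, 124.5 and 96.37 CPM in astrocytes, 170.2, 133.7 and 129.6 in mKate2-negative and 152.7, 186.3 and 141.1 in mKate2-positive cells, so every tumor library was above every astrocyte library. The log2 fold change was 0.40 ± 0.15 (adjusted P = 0.0451) in mKate2-negative and 0.61 ± 0.17 (adjusted P = 0.0150, edgeR) in mKate2-positive cells. The call in mKate2-negative cells was lost without astrocyte replicate 1 (adjusted P = 0.0705), astrocyte replicate 3 (0.0984), mKate2-negative replicate 1 (0.167) or mKate2-negative replicate 2 (0.0675, edgeR). Per kb it was the V1 gene with the highest level, at 97.46, 127.3 and 141.0 CPM per kb in astrocytes, mKate2-negative and mKate2-positive cells. Its alternative forms contributed little: Atp6v1g2, known mainly from neurons, had 2.774 to 3.944 CPM in all libraries, and Atp6v1g3, known from kidney, had counts in 1 library only. Atp6v1f, next in level per kb and a part of the rotor, had 79.7, 76.8 and 51.49 CPM in astrocytes, 70.55, 55.53 and 53.89 in mKate2-negative and 64.91, 113.2 and 61.13 in mKate2-positive cells. Its groups overlapped, and the single high library was mKate2-positive replicate 2.

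In V0, the proton-conducting sector, 5 of 7 tested genes were lower in mKate2-negative cells (33.8% of all genes), and 4 were lower and 1 higher in mKate2-positive cells (32.1% and 28.0%). The gap was greatest for Atp6v0e2, one of the alternative genes for the small membrane subunit e (chr6:48537615-48541801, plus strand). It had 155.7, 136 and 140.1 CPM in astrocytes, 3.163, 1.839 and 3.787 in mKate2-negative and 3.606, 3.054 and 1.522 in mKate2-positive cells. Tumor levels were 2.04% and 1.90% of the astrocyte mean. The log2 fold changes were −5.62 ± 0.26 and −5.64 ± 0.32, with adjusted P values of 6.79e-06 and 1.46e-05 from edgeR. The tumor values rest on 52 to 130 reads per library, and astrocyte marker RNA was also found at low levels in the tumor libraries, as given with the markers.

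The other gene for subunit e, Atp6v0e (chr17:26663231-26699647, plus strand), moved far less. Its levels were 78.76, 76.13 and 61.73 CPM in astrocytes, 54.51, 54.75 and 51.21 in mKate2-negative and 56.34, 79.8 and 54.37 in mKate2-positive cells. It was lower in mKate2-negative cells, by 0.42 ± 0.13 on the log2 scale (adjusted P = 0.0210, edgeR), and its log2 fold change in mKate2-positive cells was −0.10 ± 0.20 (adjusted P = 0.680, edgeR), with the highest tumor value in mKate2-positive replicate 2. The call in mKate2-negative cells was lost without astrocyte replicate 2 (adjusted P = 0.0583, edgeR) and without any 1 of the mKate2-negative libraries (0.0632, 0.0572 and 0.0845). Counted per kb, Atp6v0e supplied 24.3% ± 2.20 of the summed subunit e level in astrocytes, 92.1% ± 2.71 in mKate2-negative and 93.7% ± 2.51 in mKate2-positive cells (SD, n = 3). The astrocyte libraries ranged from 22.04% to 26.42% and the tumor libraries from 89.66% to 95.82%. Per kb and in plain CPM alike, Atp6v0e2 was the higher of the pair in every astrocyte library and Atp6v0e in every tumor library. The B, C, d, E and G subunits, which also have alternative genes, drew at least 98.5% from the same gene in every group mean.

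**Figure D3:**
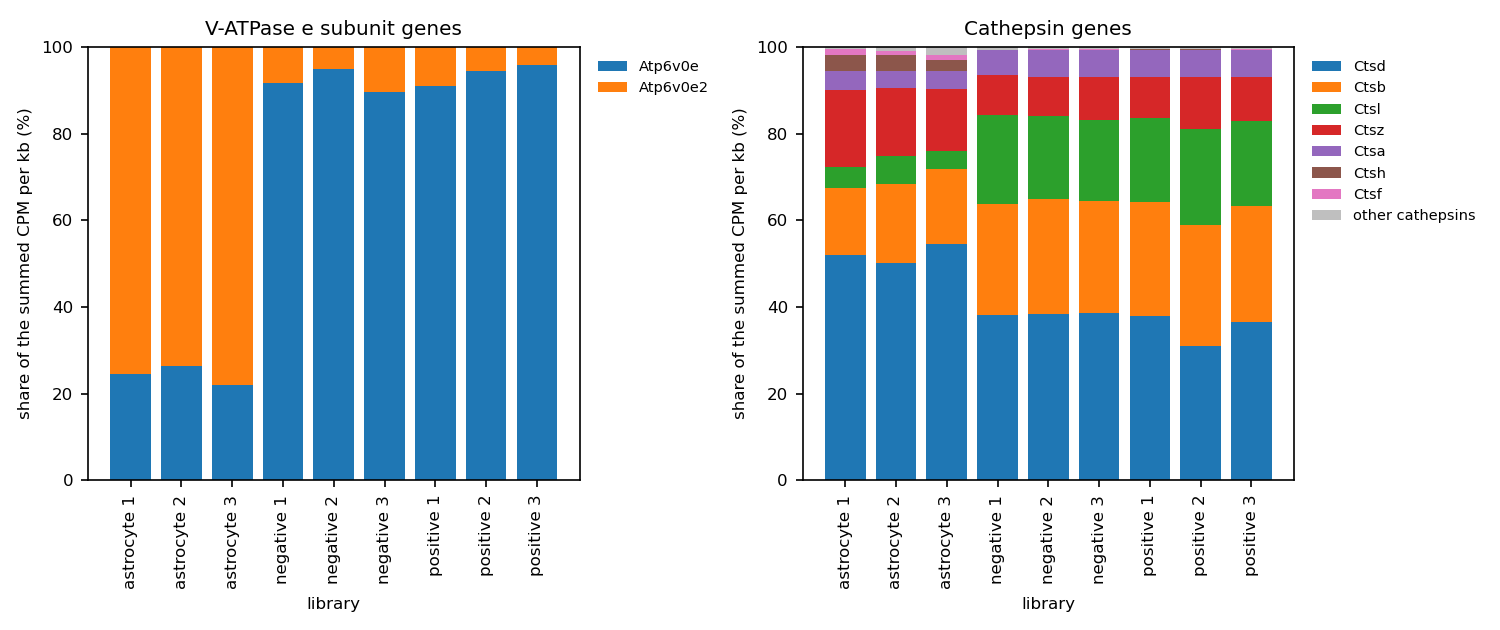
Share of Atp6v0e and Atp6v0e2 in the summed CPM per kb of subunit e, and of each cathepsin in the summed cathepsin CPM per kb, with 1 stacked bar per library. On average, Atp6v0e2 makes up 75.7% of subunit e in astrocytes and 7.87% and 6.3% in the tumor populations, and Ctsl rises from 5.10% of the cathepsins to 19.5% and 20.3%.

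Subunit a, which steers the pump to its membrane, has 4 alternative genes, of which Tcirg1 encodes the a3 form and falls outside the Atp6v0 names. Per kb, Atp6v0a1, Atp6v0a2 and Tcirg1 supplied 32.7%, 33.2% and 34.0% in astrocytes and 27.7%, 30.1% and 42.0% in mKate2-negative cells. Tcirg1 had the highest share in all 6 tumor libraries, and Atp6v0a2 in 2 of the 3 astrocyte libraries. Atp6v0a1 had 100.8, 96.43 and 106.4 CPM in astrocytes and 62.47 to 83.3 in tumor cells, without overlap, and fell by 0.55 ± 0.10 and 0.43 ± 0.13 on the log2 scale. Atp6v0a2 had 93.6, 109.9 and 112.7 CPM in astrocytes and 66.18 to 81.17 in tumor cells, also without overlap. Both were lower in both tumor populations, and in mKate2-positive cells both calls rested on single libraries: the adjusted P values from edgeR were 0.0531 and 0.100 for Atp6v0a1 without mKate2-positive replicates 2 and 3, and 0.0595 for Atp6v0a2 without replicate 1. Tcirg1 overlapped between all groups, at 64.3 to 84.32 CPM. Atp6v0a4, the form known from kidney and inner ear, stayed below the filter of the tests, at 0.2045, 0.214 and 0.0569 CPM in astrocytes, 0.772, 0.251 and 0.670 in mKate2-negative and 1.082, 0.865 and 0.907 in mKate2-positive cells. At such depth it was a minor form everywhere, at 0.506% of subunit a per kb in the group where it was highest.

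The ring and the remaining V0 parts split in direction. Atp6v0b, a proteolipid of the proton-carrying ring and the V0 gene with the highest astrocyte level per kb (90.36 CPM per kb), had 218, 195.2 and 142.7 CPM in astrocytes, 118.5, 88.29 and 104.6 in mKate2-negative and 109, 116.9 and 98.29 in mKate2-positive cells. It fell by 0.83 ± 0.19 and 0.70 ± 0.19 on the log2 scale, and the call in mKate2-positive cells had an adjusted P value of 0.0549 from edgeR without replicate 3. Atp6v0c, the main proteolipid of the same ring, had log2 fold changes of 0.011 and 0.13 (adjusted P = 0.952 and 0.453, edgeR), with 99.3 to 132.3 CPM in astrocytes and 106.2 to 123.9 in tumor cells. Atp6v0d1, which joins the ring to the rotor, had 98.75, 81.08 and 86.41 CPM in astrocytes, 104.9, 114.8 and 99.3 in mKate2-negative and 111.1, 133.2 and 106.1 in mKate2-positive cells. It was higher in mKate2-positive cells, by 0.48 ± 0.16 (adjusted P = 0.0307), and had a log2 fold change of 0.27 ± 0.12 in mKate2-negative cells (adjusted P = 0.0849, edgeR). Its call in mKate2-positive cells was lost without astrocyte replicate 2 (adjusted P = 0.118), astrocyte replicate 3 (0.0760) or mKate2-positive replicate 2 (0.0813, edgeR). Atp6v0d2, the alternative form known from osteoclasts, had 0.368, 0.275 and 0.199 CPM in astrocytes and counts in 1 of the 6 tumor libraries.

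Of the accessory subunits, Atp6ap1, needed for assembly and targeting of the pump, had 294.3, 272.8 and 315.1 CPM in astrocytes, 170.1, 190.1 and 176 in mKate2-negative and 188.8, 178.8 and 174.1 in mKate2-positive cells. It fell by 0.70 ± 0.11 and 0.63 ± 0.12 on the log2 scale, with adjusted P values of 0.000770 and 0.00245 from edgeR, and per kb it had the highest astrocyte level of the V0 and accessory genes, at 97.18 CPM per kb. Atp6ap2, also known as the prorenin receptor, was at 105.8 to 127 CPM in astrocytes and 79.3 to 102.5 in tumor cells, which did not overlap. It passed the test only in mKate2-negative cells (log2 fold change −0.36 ± 0.11, adjusted P = 0.0209), was at −0.30 in mKate2-positive cells (adjusted P = 0.0891, edgeR), and lost its call without mKate2-negative replicate 1 (adjusted P = 0.0762) or replicate 3 (0.0969).

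The cathepsins showed the widest spread. Of 18, 10 were tested in mKate2-negative cells, where 8 were lower and 1 was higher, and 9 in mKate2-positive cells, with the same counts in each direction. Of all genes, 33.8% were lower and 29.3% higher in the first comparison and 32.1% and 28.0% in the second. The median log2 fold changes were −1.69 and −1.64 for the cathepsins and −0.038 and −0.018 for all genes. Ctsh, an aminopeptidase (chr9:90054152-90076089, plus strand), had 197.1, 157.1 and 116.4 CPM in astrocytes, 1.214, 1.254 and 2.379 in mKate2-negative and 3.107, 2.164 and 1.609 in mKate2-positive cells. Tumor levels were 1.03% and 1.46% of the astrocyte mean, with log2 fold changes of −6.59 ± 0.34 and −6.02 ± 0.33 and adjusted P values of 8.73e-06 and 1.20e-05 from edgeR. Ctsf, a cysteine protease (chr19:4855130-4860918, plus strand), had 69.31, 48.4 and 69.05 CPM in astrocytes, 0.846, 1.56 and 2.48 in mKate2-negative and 1.248, 0.916 and 1.17 in mKate2-positive cells. It fell by 5.24 ± 0.37 and 5.74 ± 0.23 on the log2 scale. Both genes were thus present in astrocytes and close to the low-count filter in every SB28 library.

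Ctsd, the aspartic protease (chr7:142375911-142388038, minus strand), fell from the highest level per kb of all 45 genes in astrocytes. It had 1414, 1100 and 1337 CPM in astrocytes, 399.2, 467.9 and 406.8 in mKate2-negative and 441.7, 365.4 and 375 in mKate2-positive cells. The tumor means were 33.1% and 30.7% of the astrocyte mean, and the log2 fold changes were −1.58 ± 0.15 and −1.63 ± 0.15 (adjusted P = 7.99e-05 and 0.000117, edgeR). Ctsz, a carboxypeptidase also called cathepsin X, had 298.9, 210.9 and 214.1 CPM in astrocytes, 59.55, 67.59 and 64.04 in mKate2-negative and 68.48, 86.77 and 64.35 in mKate2-positive cells. It fell by 1.91 ± 0.17 and 1.64 ± 0.21. Ctso, a less studied cysteine protease, had 28.67, 31.98 and 44.54 CPM in astrocytes, 8.644, 11.73 and 9.383 in mKate2-negative and 8.072, 8.552 and 8.076 in mKate2-positive cells. It fell by 1.80 ± 0.20 and 2.01 ± 0.20, and for these 3 genes the astrocyte and tumor libraries did not overlap.

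Ctsc, a dipeptidyl peptidase that activates granule proteases of immune cells, rested on 1 library. It had 1.39, 4.861 and 50.03 CPM in astrocytes, 1.361, 1.226 and 0.469 in mKate2-negative and 1.553, 0.713 and 1.141 in mKate2-positive cells, with overlapping groups. The log2 fold changes of −4.17 ± 1.25 and −3.97 ± 1.22 became −1.61 (adjusted P = 0.0436) and −1.42 (adjusted P = 0.0642, edgeR) without astrocyte replicate 3. The call was also lost without any 1 of the mKate2-negative libraries (adjusted P = 0.0586, 0.0622 and 0.0713, edgeR) and without any 1 of the mKate2-positive libraries (0.0546, 0.0806 and 0.0692). Astrocyte replicate 3 also had the highest levels of several markers given below, and their part in the Ctsc value was not tested.

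Smaller falls were seen in a pair of abundant cathepsins. Ctsb, a cysteine protease with endo- and carboxypeptidase activity, had 1073, 1042 and 1091 CPM in astrocytes, 691.4, 829.5 and 703.2 in mKate2-negative and 785.4, 842.8 and 707.7 in mKate2-positive cells. It fell by 0.51 ± 0.12 and 0.38 ± 0.14 on the log2 scale, and the latter call (adjusted P = 0.0431, edgeR) was lost without any 1 of the 3 astrocyte libraries (0.0730, 0.0770 and 0.0570) or without mKate2-positive replicate 1 (0.140) or 3 (0.183). Ctsa, the serine carboxypeptidase that also protects other lysosomal enzymes, had 174 to 233.1 CPM in astrocytes and 121.6 to 152.5 in tumor cells. It fell by 0.58 ± 0.15 and 0.45 ± 0.15, and its call was lost without mKate2-negative replicate 1 (adjusted P = 0.0544, edgeR) in the first comparison and without astrocyte replicate 1 (0.0776), mKate2-positive replicate 1 (0.0987) or mKate2-positive replicate 3 (0.137) in the second.

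Ctsl, a broad cysteine endopeptidase (chr13:64359337-64370890, minus strand), went the other way. It had 355.4, 384.8 and 285.3 CPM in astrocytes, 595.8, 640.2 and 546 in mKate2-negative and 624.4, 718.3 and 551.8 in mKate2-positive cells, so that no libraries overlapped. The tumor means were 174% and 185% of the astrocyte mean, with log2 fold changes of 0.81 ± 0.14 and 0.96 ± 0.18 and adjusted P values of 0.00181 and 0.00252 from edgeR. The ratio of Ctsl to Ctsd in CPM per kb was 0.0773 to 0.127 in astrocytes and 0.486 to 0.712 in the tumor libraries. The exonic lengths used were 6489 bases for Ctsl and 2351 for Ctsd. Plain CPM put Ctsl below Ctsd in astrocytes (means of 341.9 and 1283). It put Ctsl above Ctsd in mKate2-negative (594.0 and 424.6) and mKate2-positive cells (631.5 and 394.0). The cathepsin pool of the tumor cells therefore had another make-up. Ctsd supplied 52.2% ± 2.26 of it per kb in astrocytes and 38.3% ± 0.266 and 35.2% ± 3.63 in mKate2-negative and mKate2-positive cells (SD, n = 3), while Ctsb supplied 17.0% ± 1.54, 26.0% ± 0.455 and 26.9% ± 0.828.

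The remaining cathepsins were scarce or absent. Ctsk, the collagenase of osteoclasts, had 0.4692 to 1.793 CPM over the 9 libraries and was tested in mKate2-negative cells only (log2 fold change −0.54, adjusted P = 0.428, edgeR). Ctss, known from antigen-presenting cells, reached at most 0.489 CPM, and Ctsw, known from cytotoxic lymphocytes, at most 0.398 CPM. Ctse, Ctsg and the rodent placental genes Ctsj, Ctsm, Ctsq and Ctsr had no counts in any library, nor did Atp6v1fnb. Those 7 genes, with 8 others that had counts, made up the 15 that no comparison tested. Of the 8, the pump genes Atp6v1b1, Atp6v1c2 and Atp6v1e2, alternative forms known from kidney, lung or testis, stayed at or below 0.263 CPM.

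Both Lamp genes were lower in tumor cells. Lamp1 had 693, 646 and 736.1 CPM in astrocytes, 360.6, 420.9 and 388 in mKate2-negative and 395.5, 428.2 and 376.2 in mKate2-positive cells. It fell by 0.81 ± 0.12 and 0.71 ± 0.13 on the log2 scale (adjusted P = 0.000572 and 0.00260, edgeR). Lamp2, which also serves chaperone-mediated autophagy, had 253.8, 358.2 and 441.7 CPM in astrocytes, 181.7, 193.4 and 176 in mKate2-negative and 187, 169.1 and 178.8 in mKate2-positive cells, and fell by 0.91 ± 0.18 and 0.90 ± 0.19. Neither gene's tumor levels overlapped the astrocyte levels.

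Many lysosomal genes share a short promoter element, the CLEAR motif, whose core CACGTG is bound by the transcription factor TFEB and its relatives. CACGTG reads the same on both strands and is also the core of the sites of other helix-loop-helix factors. The longer TCACGTG, searched on both strands, contains it. RefSeq promoter windows of GRCm38.p6, from 250 bases before to 50 after the transcription start, were at hand for 35 of the 45 genes. CACGTG was in 9 of the 35 (25.7%) and in 8.09% of the windows of 27025 genes, and TCACGTG in 7 (20.0%) and in 4.29%. The 27025 genes were not limited to protein-coding or tested genes, so they are not a matched set. All 9 were among the 23 tested genes with a window: Lamp1 with 4 matches, Atp6v0b, Ctsa and Ctsd with 2 each, and Atp6v0d1, Atp6v0e, Atp6v1a, Ctsf and Ctsl with 1 each. The following stretches, written 5′ to 3′ on the strand of the gene with CACGTG in capitals, are shown because the genes carrying a match moved in both directions, and because Atp6v0e2, with one of the largest gaps to astrocytes, has none in its window. They lie upstream of the RefSeq start at chr8:13159086-13159160 (plus strand) for Lamp1, chr4:117887330-117887379 (minus) for Atp6v0b, chr7:142387908-142387937 (minus) for Ctsd, chr19:4855074-4855103 (plus) for Ctsf, chr13:64370739-64370768 (minus) for Ctsl and chr6:48537469-48537568 (plus) for Atp6v0e2. For Ctsd and Ctsl the RefSeq start lies inside the GENCODE span given above, so these stretches lie within that span.
Lamp1: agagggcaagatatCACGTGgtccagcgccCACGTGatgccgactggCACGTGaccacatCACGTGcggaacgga
Atp6v0b: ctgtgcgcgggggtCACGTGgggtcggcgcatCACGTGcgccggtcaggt
Ctsd: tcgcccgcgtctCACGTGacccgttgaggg
Ctsf: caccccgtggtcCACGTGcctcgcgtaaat
Ctsl: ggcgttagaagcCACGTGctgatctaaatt
Atp6v0e2: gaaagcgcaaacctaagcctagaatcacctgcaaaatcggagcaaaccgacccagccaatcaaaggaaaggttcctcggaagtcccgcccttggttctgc

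Of the genes lower in mKate2-negative cells, 6 of 16 with a window had CACGTG, of those tested and not called 2 of 6, and Ctsl, the higher one with a window, had it. Of the genes lower by more than 2-fold, Ctsd and Ctsf had it among 6. A match is a description of the letters in the window and not of binding, which was not measured.

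Between mKate2-positive and mKate2-negative SB28, none of 29 tested genes differed at an adjusted P value below 0.05, nor did any of all 11854 genes (0.0%) by edgeR. The study listed genes that were higher in mKate2-positive cells. Its thresholds, an unadjusted P value below 0.05, a change of more than 1.5-fold and a count over 50, taken here as the mean normalized count, were applied in either direction. None of the 29 passed and 0.363% of all genes did, 23 higher and 20 lower. None had an unadjusted P value below 0.05 in edgeR or DESeq2, against 2.03% of all genes in edgeR. Without the filter on low counts, Atp6v0e, Atp6v1f and Ctsz were below 0.05 before adjustment in edgeR, as they were without mKate2-positive replicate 3, and none was below it after adjustment. Of all genes, 5.00% were below 0.05 before adjustment in the first of these fits and 4.97% in the second. The log2 fold changes ran from −0.51 for Ctsf to 0.56 for Ctsh, with a median of 0.066 against 0.0033 for all genes, and 24 of the 29 were above 0, as were 6039 of all 11854. The smallest P value was 0.108 by edgeR, for Atp6v1f.

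**Figure D4:**
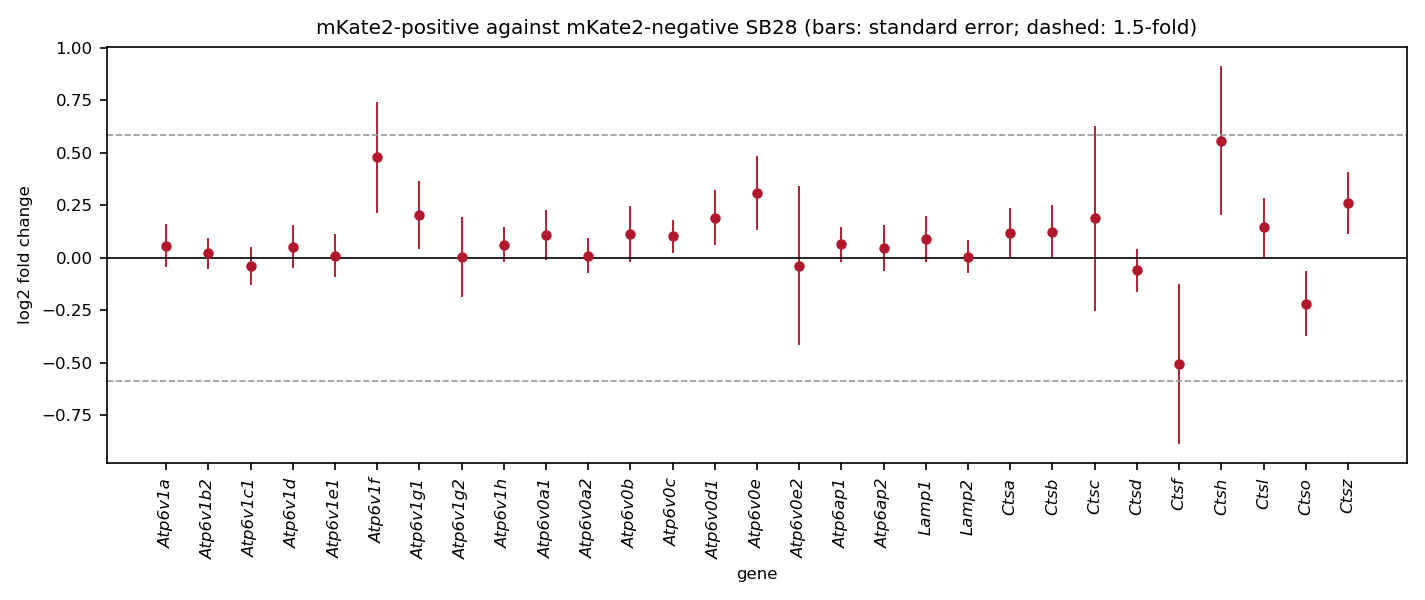
Log2 fold change of each tested gene in mKate2-positive against mKate2-negative SB28, with bars of 1 standard error from edgeR. Dashed lines mark 1.5-fold. The values lie between −0.51 and 0.56, and the 4 longest bars belong to Ctsc, Ctsf, Atp6v0e2 and Ctsh.

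The genes with the widest values were those with few reads or with 1 high library. Atp6v1f had a log2 fold change of 0.48 ± 0.26, which was 0.074 ± 0.12 without mKate2-positive replicate 2. Ctsh was at 0.56 ± 0.36 and Ctsf at −0.51 ± 0.38, both from at most 112 reads per tumor library. The abundant members were narrower: Lamp1 was at 0.092, Ctsd at −0.060 and Ctsl at 0.15, and Ctsl was at −0.012 without mKate2-positive replicate 2. Ctso was the only one of the 29 whose libraries did not overlap, where 8.83% of all genes did not, with 8.644 to 11.73 CPM in mKate2-negative and 8.072 to 8.552 in mKate2-positive cells, and a log2 fold change of −0.22 ± 0.15. Among the untested genes, Atp6v0a4 did not overlap, with 0.251 to 0.772 and 0.865 to 1.082 CPM.

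Leaving out 1 library brought 1 gene past these thresholds in each of 3 cases, in which 0.306%, 0.340% and 2.28% of all genes passed. Ctsf was lower in mKate2-positive cells without mKate2-negative replicate 1 (log2 fold change −0.80), and Ctsh was higher without mKate2-negative replicate 3 (0.93) and Atp6v1f without mKate2-positive replicate 3 (0.64). Mitochondrial uptake as marked by mKate2 thus went with no call in these genes when all 6 libraries were used, at a standard error of 0.26 for Atp6v1f and 0.38 for Ctsf. mKate2-positive replicate 2 had the highest of the 6 tumor levels for 9 tested genes and the lowest for 7. The other tumor libraries were highest for 2 to 6 genes and lowest for 1 to 8, and the shares over all genes are not given here.

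Genes that work with the pump and the proteases were read as lists. Tcirg1 and genes for other proteins that assemble, regulate or bind the V-ATPase were called about as often as all genes. Of 13 tested, 3 were higher and 4 lower in mKate2-negative cells (29.3% and 33.8% of all genes), and 3 and 3 in mKate2-positive cells (28.0% and 32.1%). The higher ones included Ncoa7, which binds the pump through its TLDc domain (13.25, 19.29 and 18.61 CPM in astrocytes, 32.94 to 48.17 in tumor cells, log2 fold changes 1.42 and 1.17), and Tldc1 (1.14 and 1.15). The lower ones included Oxr1, of the same protein family (134 to 172.4 CPM in astrocytes, 48.03 to 66.49 in tumor cells, −1.24 and −1.35), and Tbc1d24 (−0.84 and −0.90).

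Other lysosomal hydrolases and membrane proteins were mostly lower. Of 42 hydrolases tested, 32 were lower and 3 higher in mKate2-negative and 30 lower and 4 higher in mKate2-positive cells, with median log2 fold changes of −0.87 and −0.79. Of all genes, 33.8% were lower and 29.3% higher in the first comparison and 32.1% and 28.0% in the second, with medians of −0.038 and −0.018. Hyal1, a hyaluronidase, had 33.61, 38.4 and 31.36 CPM in astrocytes and 2.546 to 4.876 in tumor cells (−3.16 and −3.38), and the sulfatase gene Arsg had 3.485 to 5.92 CPM in astrocytes and 0.305 to 0.838 in tumor cells (−3.10 and −3.44). Pla2g15, a phospholipase, and Gla, alpha-galactosidase A, were higher, at 0.57 and 0.68 and at 0.56 and 0.57. Of 24 membrane proteins and transporters, 16 were lower and 1 higher in both comparisons, against these same backgrounds. Scarb2, the receptor that carries glucocerebrosidase to lysosomes, had 196.1, 209 and 276.8 CPM in astrocytes and 43.26 to 50.29 in tumor cells (−2.28 and −2.22), and the peptide transporter gene Abcb9 had 6.818 to 13.86 CPM in astrocytes and 0.351 to 0.905 in tumor cells (−3.96 and −4.12). Arsg, from 9 to 25 reads per tumor library, and Abcb9, from 12 to 27, passed the filter on low counts only through the astrocytes, so their calls in the lower direction are not independent of it. Tmem192 was the one that rose, by 0.56 and 0.85.

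**Figure D5:**
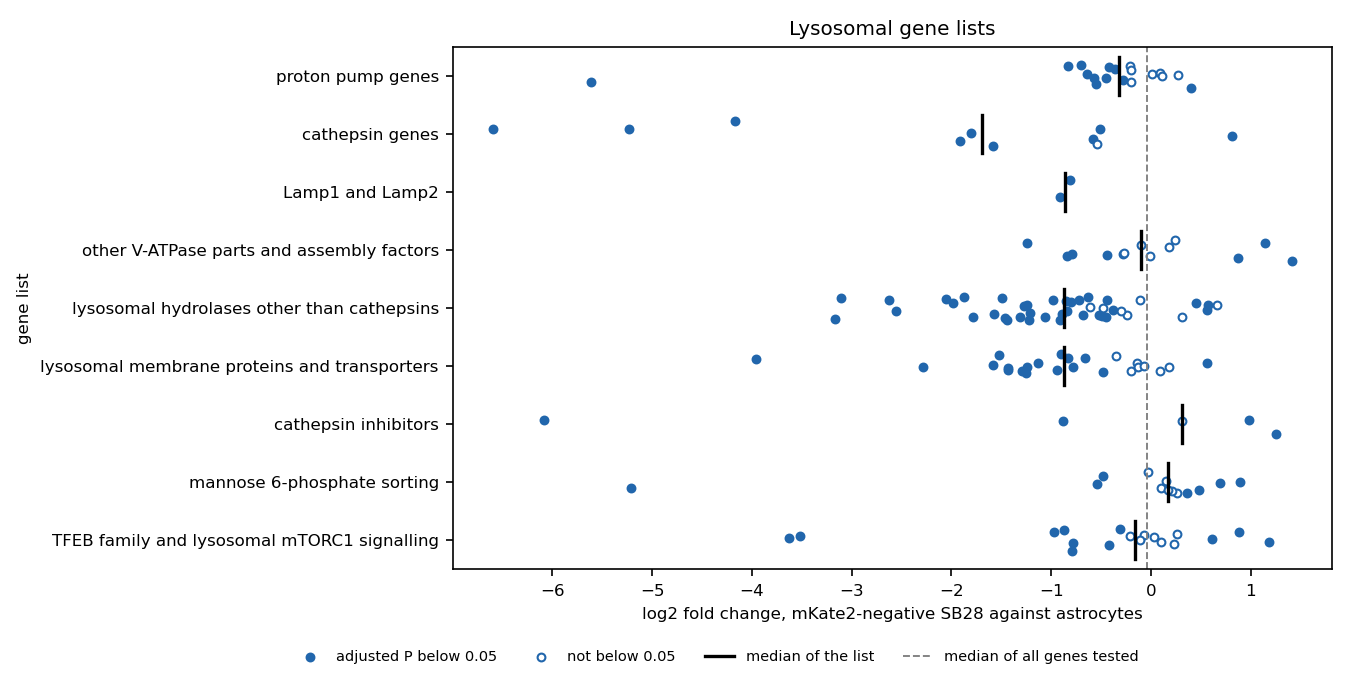
Log2 fold change of every tested gene of each list in mKate2-negative SB28 against astrocytes, with the median of each list as a black line and that of all genes tested as a dashed line. Hydrolases and membrane proteins lie mostly below 0, each with a median of −0.87, whereas inhibitors, sorting factors and TFEB and mTORC1 genes spread to both sides of 0.

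The lists of inhibitors, sorting factors and nutrient signalling had no common direction. Among 5 tested cathepsin inhibitors, 2 were higher and 2 lower in mKate2-negative cells, and 2 and 1 in mKate2-positive cells, near the shares of all genes (29.3% and 33.8%, and 28.0% and 32.1%). Serpina3n, a secreted serpin, had 18.77, 16.75 and 27.07 CPM in astrocytes and 0.1103 to 0.4836 in tumor cells, from 3 to 19 reads per library (−6.09 and −5.82), and also passed the filter only through the astrocytes. Cst3, encoding cystatin C, was at −0.88 and −0.36, of which only the first passed the test. Cst6, another cystatin, rose by 1.25 and 1.86, and Serpinb6a by 0.98 and 1.04. Cst6 had 54.01 CPM in mKate2-positive replicate 2 and 18.76 to 25.05 in the other tumor libraries, which makes that library the highest of the 6.

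Of 13 genes for the sorting of hydrolases, 4 were higher and 3 lower in mKate2-negative and 5 and 1 in mKate2-positive cells, against the same backgrounds of 29.3% and 33.8% and of 28.0% and 32.1% of all genes. Sort1, which encodes sortilin, a receptor that brings several hydrolases to lysosomes, had 132.1, 154.7 and 197.4 CPM in astrocytes, 3.825, 4.402 and 4.658 in mKate2-negative and 5.298, 3.258 and 3.424 in mKate2-positive cells (−5.21 and −5.26). Gnptg, for a subunit of the enzyme that adds the mannose 6-phosphate tag, was at −0.54 and −0.26, and only the first passed the test. Vps35, a retromer subunit, rose by 0.89 and 0.82, and Gga3, an adaptor for tagged cargo, by 0.69 and 0.68.

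Of 18 genes of the TFEB family and of mTORC1 signalling at the lysosome, 8 were lower and 3 higher in mKate2-negative and 6 and 3 in mKate2-positive cells, where 33.8% and 29.3% and then 32.1% and 28.0% of all genes were. The Rag GTPases, which recruit mTORC1 in response to amino acids, included the genes with the largest falls. Rragb had 10.92, 11.83 and 10.22 CPM in astrocytes and 0.4836 to 1.229 in tumor cells (−3.62 and −3.51), and Rragd had 26.25, 42.62 and 45.11 and 2.138 to 3.594 (−3.52 and −3.65). Fnip2, a partner of folliculin, rose by 1.19 and 1.14, and Rptor, which encodes the scaffold of mTORC1, by 0.89 and 0.85. Tfeb and Tfe3, named after their values were seen because they bind the promoter motif, fell by 0.79 and 0.73 and by 0.98 and 0.85. Mitf, of the same family, did not pass the test, at 0.036 and −0.074 (adjusted P = 0.917 and 0.807, edgeR). In mKate2-positive against mKate2-negative cells no gene of these lists passed an adjusted P value of 0.05 in edgeR, nor did any of all 11854 genes. Before adjustment Ncoa7 (−0.25) and Nagpa (0.27) were below 0.05, as were 2.03% of all genes.

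Marker genes were read to check the labels. The 15 astrocyte markers summed to 1117, 1128 and 2048 CPM in the astrocyte libraries, 350.9, 434.7 and 396.9 in mKate2-negative and 379.8, 418.9 and 395.2 in mKate2-positive cells. Of 13 tested, 12 were lower in tumor cells and Gja1 was higher, which alone gave 240.8 to 284.2 CPM there. Only 9 of this list were tested between the tumor populations. The rest of the 13 thus passed the filter on low counts only through the astrocytes, and their lower calls are not independent of it. Slc1a3, a glutamate transporter, had 172.8, 176.9 and 235.6 CPM in astrocytes and 0.56 to 2.379 in tumor cells, whereas Gfap was low in the astrocytes, at 8.833, 3.424 and 19.44 CPM, and Gjb6 had no counts. The oligodendrocyte lineage list summed to 972.8, 517.5 and 587.6 CPM in astrocytes and 27.62 to 35.42 in tumor cells, with 4 of 5 tested lower in both tumor populations. Among all genes, 33.8% were lower in mKate2-negative and 32.1% in mKate2-positive cells. In astrocytes Olig1 gave the most (541, 241.3 and 304.2 CPM), followed by Olig2 (268.3, 158.9 and 155.2) and Cnp (136.1, 97.5 and 104.1), with Mbp, Mog, Mag and Sox10 near 0. The astrocyte libraries thus carried most of the astrocyte markers together with these oligodendrocyte lineage genes and low Gfap.

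Of the other lists, the microglia and macrophage markers, cells rich in several cathepsins, summed to 57.74, 48.58 and 38.65 CPM in astrocytes and 50.54 to 64.91 in tumor cells, with 2 of 3 tested lower and 1 higher in mKate2-negative cells. Most of this was Tmem119, and the defining markers Cx3cr1 and Csf1r were at 0 or at most 0.795 CPM. The largest fall among the 3 tested had log2 fold changes of −6.50 and −5.39. That gene was not tested between the tumor populations, so it passed the filter on low counts only through the astrocytes. Cd68 had 15.7, 17.9 and 6.69 CPM in astrocytes and 1.54 to 3.54 in tumor cells, in the direction of most cathepsins. Tmem119 went the other way, with 39.05, 24.83 and 30.54 CPM in astrocytes and 47.26 to 61.14 in tumor cells. Fibroblast and pericyte markers summed to 1471, 1578 and 1184 CPM in astrocytes and 555.4 to 820.9 in tumor cells, mostly Col1a2, with 2 of 4 tested lower in mKate2-negative cells and Dcn and Lum at most 2.45 CPM. Neuron markers summed to 53.49, 98.91 and 88.46 CPM in astrocytes and 38.6 to 48.85 in tumor cells, with 2 of 4 tested lower and 1 higher in mKate2-negative cells and Rbfox3 at 0. Of all genes, 33.8% were lower and 29.3% higher in mKate2-negative cells, so these counts over few markers say little. The part of these cells in the differences was not tested.

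Astrocyte replicate 3 stood apart, with the highest Aldoc (362 against 55.6 and 33.8 CPM) and Aqp4 (59.7 against 5.64 and 6.82) and with endothelial markers at 198.4 CPM against 7.483 and 14.06, nearly all from Flt1 (192.2). Tumor cells had 48.49 to 61.13 CPM of the endothelial list, neither of its 2 tested genes passed the test, and Cldn5 was near 0. Without that library, 21 genes of the pump, cathepsin and Lamp families were lower in mKate2-negative and 15 in mKate2-positive cells, against 33.4% and 30.1% of all genes. mKate2-negative replicate 3 had the highest tumor levels of Slc1a3 (1.22% of the astrocyte mean), Mlc1 (1.37%), Ctsf (3.98%) and Atp6v0e2 (2.63%). Ctsh was highest in mKate2-positive replicate 1 (1.98%) and Aldh1l1, another astrocyte marker, in mKate2-positive replicate 2 (6.01%). Over the 6 tumor libraries Ctsf ranged from 1.36% to 3.98% in these percentages, Slc1a3 from 0.287% to 1.22% and Aldh1l1 from 3.48% to 6.01%. Mlc1 ranged from 0.430% to 1.37%, Olig1 from 0.309% to 1.78% and Olig2 from 0.3015% to 1.52%. Ctsf was thus above Slc1a3, Mlc1, Olig1 and Olig2 and below Aldh1l1 in every tumor library. Atp6v0e2, at 1.06% to 2.63%, had the same order. Ctsh, at 0.774% to 1.98%, was also below Aldh1l1 in every tumor library. It was below Olig2 in mKate2-negative replicates 1 and 3, and below Olig1 in the latter. The part of astrocyte RNA in the low tumor levels was not tested.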

How the data were processed

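RNA was sequenced from 9 sorted populations, 3 per group. Per the labels and methods, the authors trimmed reads with Trimmomatic 0.36, mapped them to GRCm38 with STAR 2.5.2b and counted them per gene with featureCounts (Subread 1.5.2). The deposited values are these raw counts. Strand use and annotation release are not given in the sources used here, so reads of overlapping genes (Lamp1 with Grtp1, Ctsa with Pltp, Ctsb with Fdft1, Ctsd with Gm49369, Ctsl with Gm49230, Ctsz with Nelfcd and others) cannot be told apart. The sort gates in the labels give CellTrace Violet to tumor cells and the methods give it to astrocytes, so libraries were taken by name. Names, positions and exonic lengths came from GENCODE M21.

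Each pair of groups was compared with R 4.3.3 and edgeR 4.0.16: TMM normalization, a filter that kept genes with over 1 CPM in 2 or more of the 6 libraries, the quasi-likelihood test and Benjamini-Hochberg adjustment over all genes tested. Standard errors are the size of the log2 fold change over the root of F. CPM are plain, without TMM. DESeq2 1.42.0, other scalings and filters, one fit with all 9 libraries, the replicate block, removal of a gene length trend and each library left out were alternatives. The fits were tested on simulated data in an easier and a harder form. These forms differed in the size of the changes and in how the spread of each gene was set. Fewer changes were recovered in the harder one, where changes were smaller, and the part of each difference was not separated. The members, lists and tests were chosen with earlier results of these data known. Values per library were given for members called beyond 2-fold, the 2 of each class with the highest level per kb and alternative forms of called subunits. Of each other list, the 2 called genes with the largest change per direction were named. Other values served to account for every gene. One marker gene on the lists is not reported here.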

Additional observations from a re-analysis of the deposited data

How the results depend on the processing

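No gene called against astrocytes changed direction under any alternative run, and genes not called there were not followed. Over the settings other than left-out libraries, with each gene counted once per setting, 16 calls were lost and 182 kept in mKate2-negative cells. In mKate2-positive cells 12 were lost and 168 kept. The lost calls not named below are not listed. The count of genes higher in mKate2-negative cells was 2, and 1 with upper-quartile scaling, total-count scaling, a minimum count per library, one fit with all 9 libraries, or the length trend removed together with the replicate block, because Atp6v1g1 lost its call (adjusted P = 0.103, 0.0508, 0.0885, 0.0573 and 0.0967, edgeR). Leaving out 1 library gave 1 to 2 higher, 15 to 21 lower and 6 to 8 lower by over 2-fold in mKate2-negative cells, and 2 to 3, 10 to 15 and 6 to 8 in mKate2-positive cells. In the same fits 23.9% to 31.7% of all genes were higher and 28.7% to 34.7% lower in mKate2-negative cells, and 22.5% to 27.7% and 27.0% to 32.0% in mKate2-positive cells. The share of all genes lower by over 2-fold is not given for these fits. In the main fits it was 22.4% in mKate2-negative and 22.8% in mKate2-positive cells. Leaving out 1 library gave 0 to 1 genes by the study's thresholds in either direction between the tumor populations. There, log2 fold changes were followed for only part of the 29 tested genes, and small ones among them changed sign without 1 library. Atp6v0e2 (−0.038) ran from −0.29 to 0.25, being 0.029 and 0.18 without mKate2-negative replicates 1 and 3 and 0.25 without mKate2-positive replicate 3. Ctsc (0.19) ran from −0.16 to 0.44, being −0.16 without mKate2-negative replicate 3 and −0.081 without mKate2-positive replicate 1. Ctsd (−0.060) ran from −0.12 to 0.019, the latter without mKate2-negative replicate 2, and Ctsl (0.15) from −0.012 to 0.24, the former without mKate2-positive replicate 2. The causes were not tested.

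Same-numbered libraries had deviations from their group means that correlated at 0.054, 0.042 and 0.023 between mKate2-negative cells and astrocytes, at −0.15, 0.066 and 0.25 between mKate2-positive cells and astrocytes and at −0.0037, 0.14 and 0.17 between the tumor populations. All 3 groups were sorted from the same kind of co-culture, of which the study had 3, but the labels do not say that a number marks one of them. Not every library correlated best with its own number, so the numbers were not taken to pair the samples. With the replicate block, 2 genes were higher and 18 lower in mKate2-negative and 2 and 14 in mKate2-positive cells, 6 of them by over 2-fold in each, and 0 differed between the tumor populations. Of all genes, 28.8% were higher and 32.5% lower in mKate2-negative and 26.1% and 29.9% in mKate2-positive cells under the block. The share of all genes lower by over 2-fold under the block is not given here. The calls lost were Atp6v1h and Ctsc in mKate2-negative cells (adjusted P = 0.0777 and 0.0644, edgeR) and Atp6v0d1, Ctsa, Ctsb and Ctsc in mKate2-positive cells (0.0543, 0.0607, 0.0919 and 0.0507). With 3 libraries per group, changes as small as those between the tumor populations lie within the spread between libraries, and genes below 1 CPM were not tested.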
